A study of Mus musculus with 5 samples.

Results

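The regions described here were the Pol II peaks that lay far from genes in splenic regulatory T (Treg) cells. They were the peaks on chromosomes 1 to 19 that were shorter than 5000 bp and whose midpoint lay more than 10 kb from the body of any GENCODE protein-coding, lincRNA, antisense or processed_transcript gene. Of 56615 merged peaks, 3434 met this rule, which is 6.07% of the table. The rule used position and length only, and no count. For comparison, the same autosomal peaks under 5000 bp comprised 25131 promoter peaks within 3 kb of a transcript start, 21484 other peaks inside a gene body and 5359 peaks up to 10 kb outside a gene.

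RNA polymerase II (Pol II) transcribes protein-coding genes, and it is also found at enhancers, short elements that bind transcription factors and act on genes at a distance. Active enhancers are themselves transcribed into short, unstable RNAs, and T cells carry groups of such elements beside genes that define their identity. Setd2 travels with elongating Pol II and places trimethylation on lysine K36 of histone H3 over transcribed gene bodies.

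Pol II was profiled by CUT&Tag, in which an antibody bound to chromatin guides a transposase that tags the DNA around it. Nuclei were from CD3+CD4+Foxp3-YFP+ splenocytes of C57BL/6 mice aged 8 weeks, females and males pooled, and each library used 80000 nuclei. All mice had been given IL-2c, made of 1 ug IL-2 and 5 ug anti-IL-2, as daily peritoneal doses over 3 days, and spleens were taken 48 hours afterwards. Control mice (Ctrl, 2 libraries) were Foxp3CreSetd2flox/+ and knockout mice (KO, 2 libraries) were Foxp3CreSetd2flox/flox, so that Cre acted in Foxp3-expressing cells of both groups and Ctrl cells kept 1 Setd2 allele. The methods describe each library as a biological replicate, made from pooled spleen cells of 2 mice. Whether the 2 libraries of a genotype had separate pools is not spelled out, and p-values measure the spread between these libraries. The series also listed 1 IgG library, which was not analysed here.

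Windows of a few regions are shown as examples, with the region of lowest p-value in each direction, the region of highest count density, the strongest region beside Tnfaip3, a region of the largest cluster, the most remote region, and a region inside Ighm. Each is the central 300 bases, or the whole peak where it is shorter, on the plus strand of GRCm38 (mm10), 5′ to 3′, and capitals mark matches to any of the 10 motifs named further on.
chr16:78200737-78201036 (nearest gene Cxadr, higher in KO): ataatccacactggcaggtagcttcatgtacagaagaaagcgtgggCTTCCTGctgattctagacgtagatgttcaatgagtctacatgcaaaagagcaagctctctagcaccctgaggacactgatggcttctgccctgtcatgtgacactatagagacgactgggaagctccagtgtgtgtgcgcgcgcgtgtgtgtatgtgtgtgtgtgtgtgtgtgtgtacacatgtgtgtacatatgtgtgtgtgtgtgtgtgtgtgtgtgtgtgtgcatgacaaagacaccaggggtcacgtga
chr4:63939448-63939747 (nearest gene Tnc, lower in KO): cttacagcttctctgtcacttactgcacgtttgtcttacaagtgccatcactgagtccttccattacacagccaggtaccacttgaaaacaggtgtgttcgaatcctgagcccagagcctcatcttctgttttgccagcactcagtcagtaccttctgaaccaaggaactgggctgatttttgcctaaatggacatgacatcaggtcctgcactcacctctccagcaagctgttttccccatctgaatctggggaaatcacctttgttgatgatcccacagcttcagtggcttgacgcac
chr3:5860441-5860740 (nearest gene Gm8797, highest density): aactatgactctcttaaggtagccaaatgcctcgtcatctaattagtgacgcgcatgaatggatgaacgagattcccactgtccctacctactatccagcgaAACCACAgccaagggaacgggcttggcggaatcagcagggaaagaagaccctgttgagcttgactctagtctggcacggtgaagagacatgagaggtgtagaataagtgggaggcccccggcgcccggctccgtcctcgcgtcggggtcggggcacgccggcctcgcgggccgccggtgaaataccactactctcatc
chr10:19062559-19062858 (nearest gene Tnfaip3): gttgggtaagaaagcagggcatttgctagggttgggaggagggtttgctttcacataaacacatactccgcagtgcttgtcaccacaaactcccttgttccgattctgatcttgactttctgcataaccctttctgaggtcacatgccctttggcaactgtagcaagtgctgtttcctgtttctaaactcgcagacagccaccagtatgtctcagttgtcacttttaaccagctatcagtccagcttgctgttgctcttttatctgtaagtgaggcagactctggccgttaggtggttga
chr11:52339311-52339559 (cluster between Tcf7 and Vdac1): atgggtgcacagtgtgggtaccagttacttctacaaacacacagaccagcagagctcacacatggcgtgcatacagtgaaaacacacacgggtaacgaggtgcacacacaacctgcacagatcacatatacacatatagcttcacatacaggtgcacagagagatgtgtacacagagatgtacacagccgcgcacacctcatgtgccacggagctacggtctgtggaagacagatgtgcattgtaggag
chr1:141898122-141898354 (nearest gene Kcnt2, most remote): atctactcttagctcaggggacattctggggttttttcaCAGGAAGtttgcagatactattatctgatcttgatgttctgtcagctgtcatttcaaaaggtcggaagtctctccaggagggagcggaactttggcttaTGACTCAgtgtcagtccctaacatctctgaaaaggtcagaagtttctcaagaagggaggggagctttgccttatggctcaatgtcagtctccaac
chr12:113422007-113422306 (inside Ighm): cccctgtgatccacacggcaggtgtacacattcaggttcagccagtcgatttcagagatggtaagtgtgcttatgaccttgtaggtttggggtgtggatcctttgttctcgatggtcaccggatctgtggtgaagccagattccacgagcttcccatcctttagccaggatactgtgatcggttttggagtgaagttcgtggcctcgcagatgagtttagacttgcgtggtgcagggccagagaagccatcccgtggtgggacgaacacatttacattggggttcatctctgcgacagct

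Among these windows the Cxadr window held 1 ETS match and ran into a long TG repeat, and 9 of its 27 sampled 31-base words occurred elsewhere in the assembled chromosomes. The Kcnt2 window held 1 ETS match and 1 AP-1 match. The Gm8797 window held 1 RUNX match, and its letters look like those of the large ribosomal RNA, which is encoded by repeated genes, although no ribosomal reference was matched. Of its 27 sampled words, 19 occurred elsewhere, against 0 of 27 in the Tnfaip3, Tnc and Ighm windows. Over all 3434 regions, 2569 windows held no word found elsewhere, and 26 held 80% or more of such words. The authors kept uniquely mapped reads only, and the part of repeated sequence in the counts was not tested.

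The intergenic regions resembled gene body peaks in size and signal, in a comparison limited to sites that passed peak calling. Their median length was 513 bp, against 511 bp in gene bodies, 489 bp near genes and 650 bp at promoters. Density is given as the mean of the 4 library counts, normalized by DESeq2 size factors, per kb of peak. The median density was 109 per kb in intergenic regions, 104 in gene bodies, 105 near genes and 124 at promoters, and the interquartile range of intergenic regions lay between 88.8 and 147 per kb. The median GC content was 49.4% in intergenic regions and 53.9% at promoters. The ratio of observed to expected CpG had a median of 0.1997 in intergenic regions, 0.195 in gene bodies and 0.307 at promoters. Repeat-masked bases made up a median of 13.9% of an intergenic region and 7.98% of a promoter peak.

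Most of the regions lay within 50 kb of a gene. The midpoint was 10 to 20 kb from the nearest gene of the rule in 1658 regions, 20 to 50 kb in 1290, 50 to 100 kb in 367, 100 to 500 kb in 117 and more than 500 kb in 2. The 2 sides of the 10 kb limit were a region beside Jak2, at 10001.5 bp, and a peak left out beside Dyrk3, at 9994 bp. Among these called peaks density changed little with distance, with medians of 109, 109, 112 and 108 per kb in the first 4 classes. Sites too weak to be called are absent from every class, so the medians say nothing about uncalled sequence. Upstream of the nearest protein-coding gene lay 1941 regions, and 1493 lay downstream. The regions had 1282 different nearest protein-coding genes, and 72.1% of those genes had a peak of their own within 3 kb of the gene start, compared with 49.8% of all 20807 protein-coding genes of these chromosomes.

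**Figure D1:**
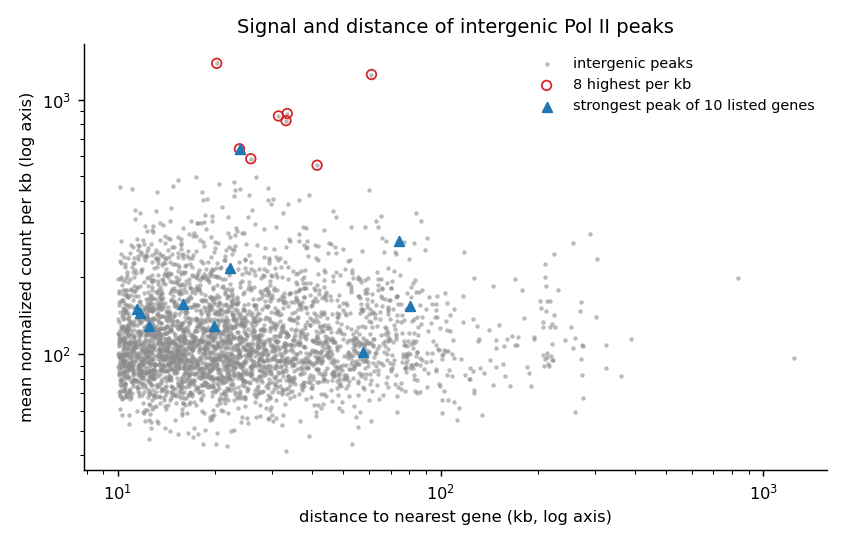
Mean normalized count per kb (log axis) against distance to the nearest gene of the rule in kb (log axis) for the 3434 intergenic regions. Each grey point is a region, red circles mark the 8 regions of highest density, and blue triangles mark the strongest region of each of 10 listed T cell genes. Densities of these called peaks spread evenly over distance, and the 8 densest regions lie between 552 and 1388 per kb.

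Distance from the 4 gene classes of the rule did not mean absence of annotation. GENCODE placed a gene of another class within 1 kb of 221 regions, most often a TEC gene (an entry still to be experimentally tested, 43 regions) or a processed pseudogene (43 regions). RefSeq, which annotates other non-coding genes, put 484 regions inside a lncRNA gene and 2772 inside no gene. A RefSeq gene start lay within 1 kb of 260 regions, of which 123 were starts of lncRNAs and 18 of tRNAs, which are transcribed by another polymerase, Pol III. The median density was 127 per kb at the 18 tRNA starts.

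Named transcription factor motifs were counted as exact letters, on both strands, in the central 300 bases of every peak at least that long, which were 2829 intergenic regions, 4375 peaks near genes, 17804 in gene bodies and 22084 at promoters. Matches of different motifs could overlap and each was counted. ETS letters (CAGGAAG) were present in 19.9% of intergenic windows, 16.3% of gene body windows and 13.8% of promoter windows. RUNX letters (TGTGGTT) were present in 10.9%, 8.34% and 5.64%, and AP-1 letters (TGANTCA) in 12.6%, 10.2% and 7.01%. These are families that T cells use widely, and all 3 had their highest share in the intergenic windows. STAT letters (TTCNNNGAA), read by factors downstream of the IL-2 receptor, were present in 8.98% of intergenic, 7.76% of gene body and 6.40% of promoter windows. For NF-kB (GGANTTTCC) the shares were 1.94%, 1.07% and 1.19%. GATA letters (AGATAAG) were found in 4.31% and 3.81% of intergenic and gene body windows, forkhead letters (GTAAACA) in 4.77% and 4.06%, and TATAAA in 12.51% and 11.8%. For STAT, NF-kB, GATA, forkhead and TATAAA letters too, the intergenic share was the highest of the classes. A highest intergenic share was therefore not particular to ETS, RUNX and AP-1. The GC-rich letters of SP and KLF factors (GGGCGGG) were in 5.23% of intergenic windows and 16.5% of promoter windows, and the CTCF core (AGGNGGC) in 19.5% and 29.0%. The shares are descriptions without a test, and they move with base composition.

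**Figure D2:**
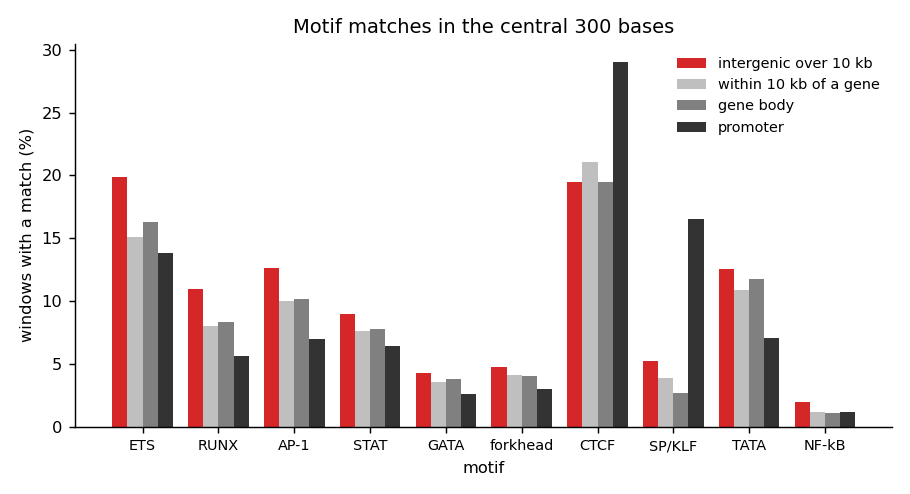
Share of 300-base windows (percent) with at least 1 match to each of 10 motifs, in intergenic regions (red), peaks within 10 kb of a gene (light grey), gene bodies (grey) and promoters (black). The red bar is the tallest for ETS, RUNX, AP-1, STAT, GATA, forkhead, TATA and NF-kB, whereas the promoter bar is the tallest for CTCF and SP/KLF.

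The 8 regions of highest density included 3 beside Ccr1, a chemokine receptor gene in a cluster of such genes on chromosome 9. The densest of all, chr3:5860369-5860812, is the one whose letters look ribosomal. Its normalized counts were 703 and 422 in Ctrl against 778 and 562 in KO, or 1388 per kb on average. Ctrl and KO libraries overlapped there.

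The next, chr11:109011675-109012063, lay 61.1 kb downstream of Axin2, a negative regulator of Wnt signaling, with counts of 605 and 413 in Ctrl against 596 and 337 in KO. The 3 regions downstream of Ccr1 reached 881, 862 and 585 per kb. At chr9:123927520-123929769 the counts were 1771 and 1801 in Ctrl against 2727 and 1632 in KO, so that KO 1 stood above the other 3 libraries. The same library was the highest at the other 2 Ccr1 regions of this group. The region chr12:8640801-8641094, upstream of the RNA-binding protein gene Pum2, had counts of 261 and 260 in Ctrl against 198 and 252 in KO. A region in a TEC gene 41.4 kb upstream of Ezh2, the H3K27 methyltransferase gene, completed the group with 552 per kb.

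Genes of T cell and Treg cell identity were often the nearest protein-coding gene. A list of 114 such genes was chosen by function, but with earlier results of these data known. It accounted for 386 of the 3434 regions (11.2%). The same list accounted for 5.52% of gene body peaks, 5.41% of peaks near genes and 1.60% of promoter peaks. The list held 0.538% of protein-coding genes, a share that does not count the intergenic sequence beside each gene. These shares are descriptions and were not tested. Genes outside the list also had many regions. With no limit on distance, Btg1 was the nearest protein-coding gene of 35 regions, the most of any gene. Rplp1 was nearest to 19 and Cog6 to 17. Within 200 kb, 51 listed genes had at least 1 region, and the 10 listed genes with the most held 165 of 368.

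Among the listed genes Tnfaip3, which encodes an inhibitor of NF-kB signaling, had the most within 200 kb, with 24 regions 10.2 to 112 kb away. Its strongest region, chr10:19061375-19064043, 47.1 kb upstream, had counts of 1799 and 1821 in Ctrl against 1576 and 1644 in KO. Summed over the 24 regions, the counts were 4515 and 4155 in Ctrl against 4038 and 3663 in KO. Both KO sums were below both Ctrl sums, and 0 of the 24 regions had an unadjusted p below 0.05, against 1.53% of all peaks.

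The 10 genes included receptors that steer lymphocyte migration. Cxcr4, the receptor for the chemokine CXCL12, had 20 regions, and the strongest, chr1:128612761-128616225, had counts of 845 and 785 in Ctrl against 807 and 589 in KO. S1pr1, which guides exit from lymphoid organs, also had 20 regions, and the strongest had counts of 387 and 335 in Ctrl against 367 and 267 in KO. Ccr7, a lymph node homing receptor, had 11, with counts of 215 and 247 in Ctrl against 187 and 204 in KO at the strongest. Ctrl and KO libraries overlapped at the strongest regions of Cxcr4 and S1pr1, and both KO libraries lay below Ctrl at that of Ccr7.

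Among regulators of activation, Dusp5, an ERK phosphatase gene, had 20 regions, and its strongest had counts of 342 and 424 in Ctrl against 355 and 373 in KO. Ctla4, the inhibitory receptor on which Treg function depends, had 17 regions at 11.4 to 56.1 kb, and the strongest, chr1:60874730-60876414, had counts of 263 and 216 in Ctrl against 298 and 240 in KO. Rgs1, a regulator of G protein signaling, had 15, with counts of 218 and 169 in Ctrl against 202 and 102 in KO at the strongest. Il10, the gene of the suppressive cytokine IL-10, had 11, and the strongest, 19.9 kb upstream, had counts of 601 and 442 in Ctrl against 589 and 496 in KO. Ctrl and KO libraries overlapped at all 4 of these strongest regions.

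The transcription factor genes of the 10 were Bach2, which restrains effector programs, with 15 regions, and Ets1 with 12. The strongest region of Bach2, chr4:32163832-32165516, 74.1 kb upstream, had counts of 415 and 451 in Ctrl against 487 and 516 in KO. At Ets1 the strongest, 183 kb downstream, had 362 and 338 in Ctrl against 344 and 286 in KO. KO exceeded Ctrl in both libraries at Bach2 and the groups overlapped at Ets1. Foxo1, Tcf7, Runx3 and Ikzf2 had 11 regions each, as many as Il10 and Ccr7, and fell outside the 10 only through a lower summed count, and Nfkbia, Icos and Cd47 had 10 each. Of all 386 regions nearest to a listed gene, 0 had an unadjusted p below 0.05, against 1.53% of all 56615 peaks, and their median log2 fold change was 0.0014.

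The regions were often grouped. When regions separated by no more than the distance commonly used to stitch enhancers together were joined, 1511 clusters resulted, of which 857 were single regions and 174 held 5 or more, 1324 regions together. The largest had 21 regions over 50.8 kb between Tcf7, which encodes the T cell factor TCF-1, and Vdac1 (chr11:52297302-52348144). Its summed counts were 1443 and 1419 in Ctrl against 1432 and 1337 in KO. The second had 17 regions over 36.7 kb between Ikzf2, the gene of the Treg factor Helios, and Spag16, with sums of 3018 and 2120 in Ctrl against 3111 and 2473 in KO.

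Another cluster, also of 17 regions, lay more than 205 kb from any protein-coding gene, between Rplp1 and Tle3 (chr9:61664148-61708560). Its sums were 1859 and 1974 in Ctrl against 1888 and 1981 in KO, and its strongest region had counts of 461 and 576 in Ctrl against 447 and 479 in KO. The last of these, with 15 regions between Cd28 and Ctla4 (chr1:60823149-60876414), had sums of 1313 and 1248 in Ctrl against 1320 and 1209 in KO. In these 4 clusters the Ctrl and KO sums overlapped. Of their regions, 0 had an unadjusted p below 0.05, against 1.53% of all peaks. A cluster beside Ube2e3 (chr2:78961472-79008977) also held 15 regions and was ranked after the Ctla4 cluster by its lower summed count. Its sums were 964 and 630 in Ctrl against 1033 and 814 in KO, which overlapped. The fitted log2 fold change was positive at 14 of its 15 regions, and 1 had an unadjusted p below 0.05.

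The most remote region, chr1:141898122-141898354, was 1242 kb from a gene of the rule and 1286 kb downstream of Kcnt2, a potassium channel gene. Its counts were low, at 20.8 and 13.8 in Ctrl against 22.6 and 32.4 in KO. The second, chr12:114378891-114379122, lay 833 kb downstream of Adam6a but 12.1 kb from the immunoglobulin segment Ighv12-3, with counts of 46.0 and 23.4 in Ctrl against 57.0 and 57.9 in KO.

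Facts of the whole table bear on what follows. Total counts were 11331274 and 5624680 in Ctrl 1 and 2 and 13351007 and 4489646 in KO 1 and 2, a range of 2.97 times, and the median raw count of an intergenic region was 78, 41, 94 and 34 in the same order. The 6 pairs of libraries had a Pearson r of 0.873 to 0.960 over the regions on log2(CPM + 1), where CPM is the count relative to the library total, the highest between Ctrl 1 and KO 1, the deepest of each genotype. All 6 genes of the Treg list had peaks (Foxp3, Il2ra, Ctla4, Ikzf2, Cd3e and Cd4). Of these, Cd3e and Cd4 are shared with conventional CD4 T cells and do not mark Treg cells. The 10 peaks of Setd2 itself summed to 801 and 807 in Ctrl against 717 and 802 in KO, and Pol II over a floxed gene does not measure the deletion.

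The comparison of KO with Ctrl asked whether Setd2 loss changed Pol II at these regions. The regions together took 4.07% (95% Wilson interval 4.06 to 4.08) and 4.21% (4.19 to 4.23) of counts in Ctrl 1 and 2 and 4.16% (4.15 to 4.17) and 4.25% (4.23 to 4.27) in KO 1 and 2. The intervals cover counting error only. The mean of Ctrl was 4.14% ± 0.0995 and that of KO 4.21% ± 0.0582 (SD, n = 2 each), a difference of 0.0653 points (exact permutation test, two-sided, p = 0.667, where the smallest possible p was 0.3333). This test does not use the replicate numbers. Without Ctrl 1 the difference became -0.00506 points. The difference was 0.383 points for gene body peaks, -0.00894 for peaks near genes and 0.231 for promoter peaks. Each was smaller than the SD of either group. Between same-numbered libraries the difference was 0.361 and 0.406 points for gene body peaks and 0.214 and 0.249 for promoter peaks. It was 0.0945 and 0.0361 for intergenic regions and 0.0213 and -0.0391 for peaks near genes. The labels do not say that the numbers pair libraries. The libraries numbered 2, of lower depth, had the higher intergenic share in both genotypes.

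No intergenic region passed the test in KO against Ctrl. DESeq2 called 0 of 3434 at an adjusted p below 0.05, and 0% of all 56615 peaks. At an unadjusted p below 0.05 there were 44 regions (1.28%), 27 higher and 17 lower in KO, against 1.53% of all peaks, with 0.862% higher and 0.664% lower. Ctrl and KO libraries did not overlap at 1083 regions (31.5%), against 32.3% of all peaks. The shares of the intergenic regions were therefore near those of the whole table. The median log2 fold change was 0.0015 in the regions and -0.0094 over all peaks, and 9 in 10 regions lay between -0.64 and 0.70. The median standard error of a region was 0.46, and for the less abundant regions, under the median count, it was 0.57 against 0.35 for the others.

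A fit without 1 library has less power, so its count cannot show dependence on that library. The count at unadjusted p below 0.05 moved in such fits. It fell to 21 without Ctrl 1, 8 without Ctrl 2 and 14 without KO 2, and was 43 without KO 1. The majority in a direction turned without KO 1, with 18 higher and 25 lower, and without KO 2, with 5 higher and 9 lower. By distance, 20 of 1658 regions at 10 to 20 kb, 14 of 1290 at 20 to 50 kb, 8 of 367 at 50 to 100 kb and 2 of 117 at 100 to 500 kb had an unadjusted p below 0.05. Among the 123 regions at RefSeq lncRNA starts there were 5 (4.07%, against 1.53% of all peaks), 1 higher and 4 lower, and among the 18 at tRNA starts there were 0. The edgeR quasi-likelihood test gave 117 regions (65 higher, 52 lower) at this threshold, against 3.63% of all peaks, and called 2 at an adjusted p below 0.05, against 0.0477% of all peaks.

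**Figure D3:**
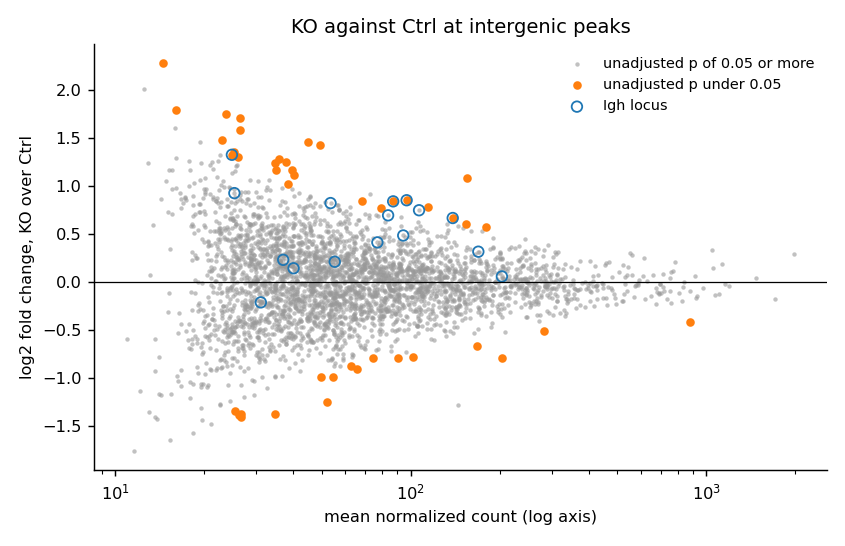
Log2 fold change of KO over Ctrl against the mean normalized count (log axis) for the 3434 intergenic regions. Orange points are the 44 with an unadjusted DESeq2 p below 0.05, and blue circles are the 16 regions within 10 kb of an Igh segment, of which 15 lie above 0.

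The 16 regions named next were those of lowest unadjusted DESeq2 p in each direction with no overlap between Ctrl and KO and a mean count of at least 10. All had an adjusted p of 1.00. The lowest p, 0.000865, was at chr16:78200397-78201376, 101 kb upstream of Cxadr, an adhesion molecule also used as a virus receptor. Its counts were 86.3 and 113 in Ctrl against 169 and 254 in KO, and its log2 fold change was 1.08 (SE 0.32). Both KO libraries exceeded both Ctrl libraries, as the choice of the 16 required. Without KO 2 the log2 fold change was 0.78 (unadjusted p = 0.0843). It was 1 of the 2 regions that edgeR called, with an adjusted p of 0.0335. The other 4 regions nearest to Cxadr had log2 fold changes of 0.59 to 1.36, and 1 of them, chr16:78238081-78238409, had an unadjusted p below 0.05, with counts of 14.4 and 13.8 in Ctrl against 32.1 and 40.9 in KO.

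Upstream of Itga11, a collagen-binding integrin gene, the region chr9:62640341-62640648 had counts of 15.8 and 38.6 in Ctrl against 62.4 and 80.05 in KO (log2 fold change 1.43, SE 0.52, unadjusted p = 0.00621). Its neighbor chr9:62637869-62638251 had counts of 15.1 and 15.2 in Ctrl against 41.6 and 32.4 in KO. These were the only 2 regions nearest to Itga11, and KO exceeded Ctrl at both. Without Ctrl 1 the log2 fold change of the first was 0.88 (unadjusted p = 0.192), and without Ctrl 2 it was 2.16.

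Beside Ube2e3, which encodes a ubiquitin-conjugating enzyme, counts were 19.4 and 4.13 in Ctrl against 41.0 and 40.9 in KO. Upstream of the smooth muscle actin gene Acta2 they were 6.47 and 2.76 in Ctrl against 11.3 and 37.5 in KO. The regions beside 2010109I03Rik, Fam107b and Lbh had log2 fold changes of 1.24 to 1.28, with Ctrl counts of 17.97 to 24.8 and KO counts of 35.1 to 71.5. The eighth lay inside Ighm and is described with its locus.

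Of the regions lower in KO, the lowest p was at chr4:63939132-63940063, 20.2 kb downstream of Tnc, the tenascin C gene. Its counts were 236 and 278 in Ctrl against 118 and 184 in KO (log2 fold change -0.79, SE 0.30, unadjusted p = 0.00761, edgeR adjusted p = 0.298). Without KO 1 the log2 fold change was -0.48 (unadjusted p = 0.227). Upstream of Ppp2r5c, a regulatory subunit gene of the phosphatase PP2A, chr12:110385764-110386715 had counts of 64.0 and 84.0 in Ctrl against 35.1 and 25.5 in KO, where the log2 fold change was -1.25 (SE 0.47). A second of the 9 regions nearest to this gene, chr12:110373206-110375660, had 374 and 289 in Ctrl against 255 and 208 in KO, with an unadjusted p of 0.0473.

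The most abundant of the 16 was chr9:123923163-123925968, 37.6 kb downstream of Ccr1, with counts of 1054 and 963 in Ctrl against 751 and 765 in KO (log2 fold change -0.41, SE 0.19, unadjusted p = 0.0283). Of its 27 sampled words 15 occurred elsewhere in the genome. The 4 denser regions of the same locus had fitted log2 fold changes of 0.14 to 0.34. KO 1 was the highest library at each of the 4, and KO 2 lay below both Ctrl libraries. Of the less dense regions nearest to Ccr1, chr9:123940191-123940546 had counts of 72.6 and 77.2 in Ctrl against 41.6 and 44.3 in KO. Its log2 fold change was -0.81, and the remaining regions had -0.064 and 0.28. The regions beside Plb1, Sipa1l2, Smndc1, Inpp4b and Rpia had log2 fold changes of -1.40 to -0.66. At Inpp4b, which encodes a phosphoinositide phosphatase, counts were 38.8 and 37.2 in Ctrl against 10.1 and 20.4 in KO. At Smndc1, a splicing factor gene, they were 79.8 and 92.3 in Ctrl against 49.9 and 40.9 in KO.

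**Figure D4:**
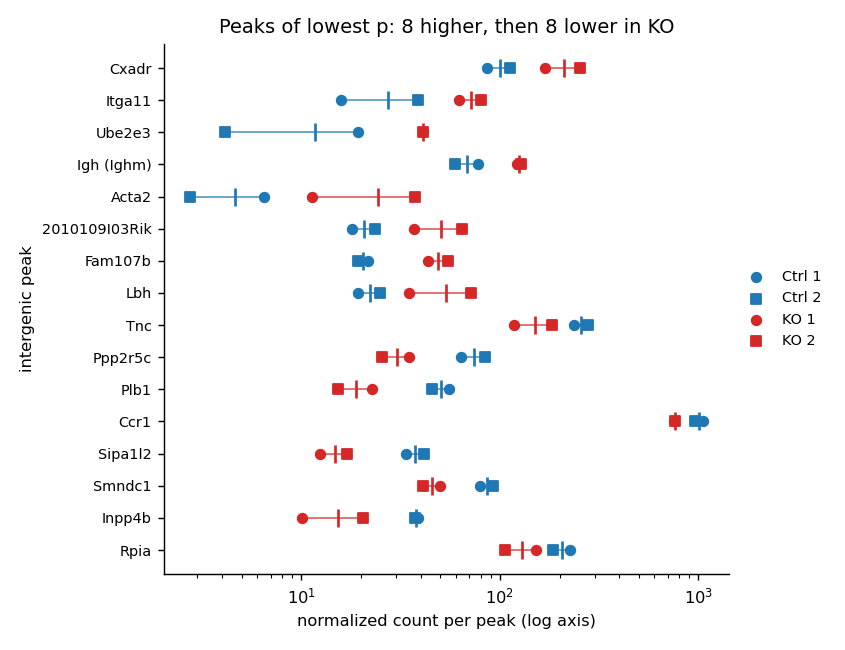
Normalized counts (log axis) in each library of the 16 intergenic regions of lowest p, named by the nearest protein-coding gene, 8 higher in KO above 8 lower in KO. Circles and squares are libraries 1 and 2, blue is Ctrl and red is KO, lines join the libraries of a group and ticks mark the mean. The groups do not overlap, as the choice required, and none of the 16 passed adjustment by DESeq2.

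The other region called by edgeR, chr15:39178162-39179384, 19.5 kb upstream of Rims2, had counts of 111 and 296 in Ctrl against 20.2 and 148 in KO. The groups overlapped, since Ctrl 1 lay below KO 2. The edgeR log2 fold change was -1.44 with an adjusted p of 0.000612, and the DESeq2 value was -1.28 (SE 1.34) with an unadjusted p of 0.339. The DESeq2 value was -0.40 without Ctrl 2 and -3.32 without KO 2.

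Antigen receptor gene segments are a class outside the 4 of the rule, and 52 regions lay within 10 kb of such a segment. Of these, 16 lay at the immunoglobulin heavy chain locus, Igh, with higher fitted values in KO at 15 of 16 and a median log2 fold change of 0.58. The remote region chr12:114378891-114379122, 12.1 kb from Ighv12-3, lies in the same span and was left out by the 10 kb limit. The group of 16 was chosen after its values were seen and has no test of its own. Single regions with an unadjusted p below 0.05 numbered 4 of 16, all higher in KO, against 1.53% of all peaks. Ctrl and KO libraries did not overlap at 12 of 16, against 32.3% of all peaks. The summed counts over the 16 were 997 and 1201 in Ctrl against 1342 and 1753 in KO. No region of the 16 passed adjustment.

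In the 9 regions from Ighe to the D segment Ighd4-1 (chr12:113275049-113430485) the groups did not overlap, with sums of 758 and 810 in Ctrl against 1009 and 1279 in KO. Inside Ighm, the gene of the IgM constant region, chr12:113421778-113422536 had counts of 77.6 and 59.2 in Ctrl against 122 and 128 in KO (log2 fold change 0.85, SE 0.35, unadjusted p = 0.0162). A second region in Ighm, chr12:113418883-113419361, had 64.0 and 59.2 in Ctrl against 85.6 and 140 in KO. Near Ighe, chr12:113275049-113275839 had 101 and 113 in Ctrl against 153 and 187 in KO.

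The 2 regions between Ighm and the D segments had smaller differences, with log2 fold changes of 0.32 and 0.06. Of these, chr12:113425224-113425868 had 173 and 225 in Ctrl against 176 and 240 in KO. The 7 regions over V segments summed to 239 and 391 in Ctrl against 333 and 473 in KO, and the groups overlapped. Among them, the region at Ighv1-77 had 9.34 and 19.3 in Ctrl against 27.9 and 42.6 in KO. Words found elsewhere made up 19 of its 25.

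T cell receptor loci are the loci that T cells rearrange and transcribe. The 13 regions at Tra had a median log2 fold change of -0.12 and 0 with an unadjusted p below 0.05, and summed counts of 1349 and 1065 in Ctrl against 1239 and 1022 in KO. The 23 regions at Trb had a median of 0.0007, also with 0, and sums of 4700 and 3918 in Ctrl against 4873 and 3893 in KO. Since 1.53% of all peaks reached this threshold, a count of 0 in groups of 13 and 23 says little.

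Markers of B cells, which carry a rearranged Igh, were examined beside the Igh values. Of the listed genes, 3 had a peak within the gene or 3 kb of it, and Ms4a1, Pax5, Ebf1 and Cr2 had none. The summed count of the list was 1378 and 1383 in Ctrl against 1453 and 1286 in KO, so that the groups overlapped. Most of it came from 3 peaks at Cd79a, at 1267 and 1212 in Ctrl against 1346 and 1172 in KO, whereas Cd79b had 59.7 and 103 in Ctrl against 57.0 and 56.2 in KO and Blk had 51.8 and 67.5 in Ctrl against 50.5 and 57.9 in KO. The myeloid list, with 5 of 8 genes having a peak, summed to 1135 and 1222 in Ctrl against 1145 and 1247 in KO. The list for CD8 T and NK cells had 1 of 8 genes with a peak, which was Eomes with 1 peak. Its counts were 51.8 and 37.2 in Ctrl against 60.0 and 59.6 in KO, higher in both KO libraries. The erythroid list, with 2 of 6, summed to 392 and 380 in Ctrl against 372 and 325 in KO, lower in both KO libraries. The part of other cell types in these results was not tested. In bulk nuclei a change in the share of a cell type and a change in occupancy per cell cannot be told apart.

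**Figure D5:**
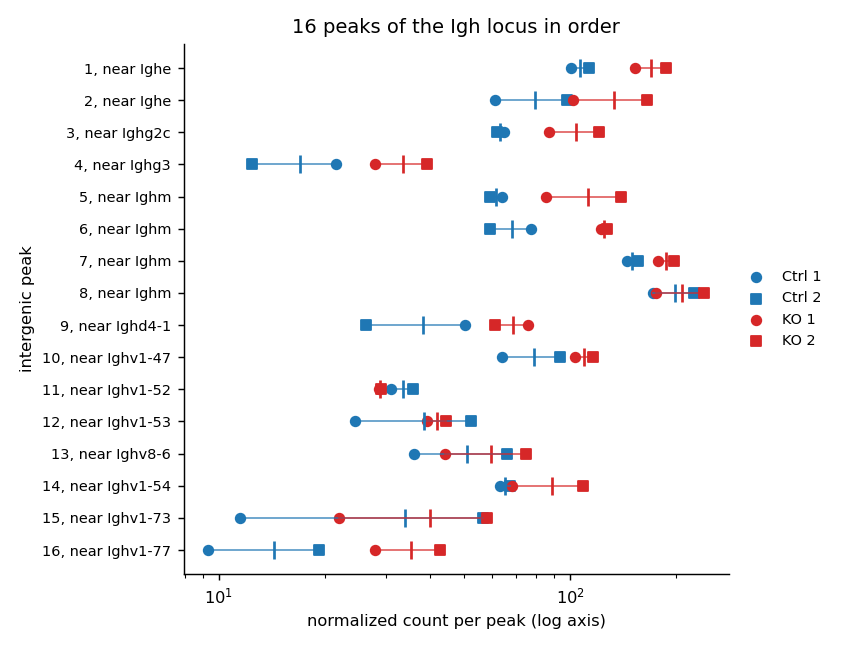
Normalized counts (log axis) of the 16 intergenic regions within 10 kb of an Igh segment, in order of position. They run from the constant gene part (1 to 8) through a D segment (9) to the V segments (10 to 16). Blue is Ctrl, red is KO, circles and squares are libraries 1 and 2, lines join the libraries of a group and ticks mark the mean. KO means lie above Ctrl means at 15 of 16 regions.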

How the data were processed

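The authors mapped the paired-end CUT&Tag reads to mm10 with Bowtie2, kept uniquely mapped reads, removed duplicates, called peaks with MACS2 against IgG and merged them with bedtools. The deposited values are raw read counts per merged peak, which the authors extracted with bedtools; tool versions are not given in the sources used here. All 4 columns of counts were mapped to libraries by name, and 0 other columns of values were left. The comparison reuses the libraries on which peaks were called, and levels between regions are given per kb because lengths differ.

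Regions were assigned from GENCODE vM21 and from the RefSeq annotation and sequence of GRCm38.p6, whose chromosomes mm10 shares. Start positions are counted from 1. The regions and gene lists were chosen with earlier results of these data known. Named regions were the 8 of lowest unadjusted p in each direction (mean normalized count of at least 10, groups not overlapping), the 8 densest, the strongest of each of the 10 listed genes with most regions within 200 kb, the 4 largest clusters and the 3 most remote, of which 1 is not reported here. Regions of Igh, Rims2 and the neighbors at Cxadr, Itga11, Ppp2r5c and Ccr1 were added after their values were seen. Words of 31 bases, taken every 10 bases of a window, were searched in the assembled chromosomes on both strands.

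KO was compared with Ctrl over all peaks with the DESeq2 1.42.0 Wald test in R 4.3.3 (two-sided, genotype only, Benjamini-Hochberg adjustment with independent filtering at 0.05), the tool of the study, and with edgeR 4.0.16 beside it. Both were tested on simulated data. Shares of counts were compared with an exact permutation test (scipy 1.17.1).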

Additional observations from a re-analysis of the deposited data

How the results depend on the processing

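DESeq2 called 0 intergenic regions under every alternative run with it (replicate block, total-count scaling, TMM size factors, a mean of at least 10 counts, each library left out, and other distance limits), and edgeR called 2. The share of regions at an unadjusted p below 0.05, 1.28%, was 3.41% with edgeR, 2.06% for the 486 regions more than 50 kb from genes, and 0.233% to 1.25% with 1 library left out. A fit with the replicate number as a block gave 0.874% (16 higher, 14 lower) and 0 calls. The labels do not say that the numbers pair libraries. Deviations of same-numbered libraries from their group means had r = 0.304 over the regions, and with 2 pairs the numbers were not taken as a pairing. The median log2 fold change, 0.0015, was 0.030 with total-count scaling, -0.011 for regions more than 5 kb away, 0.052 for those more than 50 kb away and -0.016 to 0.029 with 1 library left out. The difference in share of counts, 0.0653 points, ranged from -0.00506 to 0.136 points with 1 library left out and kept its sign under the other alternatives. Leaving out the antigen receptor loci, an alternative chosen after seeing the data, left 1.18% of regions at an unadjusted p below 0.05 and 0.0579 points. The 16 regions of lowest p kept their direction in every fit. They were chosen without overlap between Ctrl and KO, so leaving out 1 library could hardly turn their direction. The kept direction is therefore no evidence of stability. The size of the fold change moved with single libraries, for example from 0.88 to 2.16 beside Itga11. Regions of the Igh locus were not chosen by overlap. In the Igh locus 4 regions changed direction with 1 library left out, with log2 fold changes of -0.16 to 0.28 at chr12:113425224-113425868, -0.33 to 0.77 at chr12:115158382-115158679, -0.19 to 0.70 at chr12:115165606-115165955 and -0.59 to 1.76 at chr12:115790594-115790942. The cause of these changes was not tested. With 1 library left in a group, its spread was assumed to equal that of the other group. With 2 libraries a group, a median standard error of 0.46 limits what can be called, more so in regions of low count.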
